A study of Mus musculus with 8 samples.

Results

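The 48 genes described here code for the machinery that copies DNA in S phase: 11 origin licensing factors, 9 origin firing factors, 8 polymerase and primase subunits, 11 clamp, clamp loader, RPA and Okazaki fragment genes, 5 genes of nucleotide supply, and 4 genes of chromatin assembly and fork control. They were chosen by gene symbol from knowledge of the pathway, with earlier results of these data known. The shares given below are therefore descriptions of this list. All 48 were found among the 27594 genes of the count table. All 48 also passed the filter on low counts, which kept 14540 genes for testing. RNA was sequenced from regulatory T (Treg) cells, the Foxp3-expressing CD4+ T cells that restrain immune responses, of C57BL/6 mice aged 6 to 8 weeks. Cells from spleen and peripheral lymph nodes were sorted as CD4+YFP+ and divided into resting Treg (rTreg; CD44 low, CD62L high) and activated Treg (aTreg; CD44 high, CD62L low) cells. WT mice carried Foxp3-YFP-Cre alone, and Foxp1-deficient mice (Foxp1 cKO in the labels) were Foxp1fl/fl Foxp3-YFP-Cre, so every library came from cells with the Cre allele. The Cre is driven from the Foxp3 locus and the YFP marks cells that express it, so Foxp1, a forkhead transcription factor, is deleted only in cells that have turned Foxp3 on. Each of the 4 groups, WT rTreg, WT aTreg, Foxp1-deficient rTreg and Foxp1-deficient aTreg, had 2 libraries. How many mice each library held is not given in the sources used here.

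Before S phase the origin recognition complex, Cdc6 and Cdt1 load rings of Mcm2 to Mcm7 onto DNA, a step called licensing. The kinase Cdc7 with Dbf4, together with Cdc45 and the GINS complex, then turns the loaded rings into running helicases, and polymerases, a sliding clamp and a ligase build the new strands. Resting lymphocytes keep many of these genes low, and E2F transcription factors are known to raise them when a cell leaves quiescence.

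The 8 libraries held between 6373170 and 15268623 counts, and the 48 genes together took between 0.155 and 0.230 percent of them. Levels are given below as CPM, read counts set relative to library size and scaled by TMM, where TMM is a factor per library that corrects for a few abundant genes taking reads from the rest, and 3 counts correspond to between 0.196 and 0.471 CPM. Foxp1 itself was at 353 and 384 CPM in the WT rTreg libraries and 342 and 338 CPM in the Foxp1-deficient rTreg libraries, and at 234 and 230.3 against 126 and 102 CPM in aTreg cells. The count over the whole gene, which joins deleted and remaining exons, differed little in rTreg cells, so it did not check the rTreg labels. Why it was lower mainly in aTreg cells was not tested. Cd44, which marks the aTreg gate, was 5.33-fold higher in WT aTreg than in WT rTreg cells, but it was lower, at 29.6 and 30.3 against 35.1 and 45.3 CPM, in the Foxp1-deficient rTreg libraries than in the WT ones. The 7 B cell markers summed to 8.47 and 9.19 CPM in WT rTreg and 10.997 and 9.89 CPM in Foxp1-deficient rTreg cells. In aTreg cells they summed to 39.5 and 33.7 CPM (WT) and 37.3 and 35.4 CPM (Foxp1-deficient). Of the 5 that passed the filter, Cd79b, Pax5 and Cd22 were called higher in WT aTreg than in WT rTreg cells, and 0 were called lower. Ms4a1, another of the 7, had at most 4 counts in any library. The 7 myeloid markers summed to 7.92 and 8.17 CPM in WT rTreg, 15.3 and 11.8 in Foxp1-deficient rTreg, 7.57 and 7.12 in WT aTreg, and 18.7 and 6.25 CPM in Foxp1-deficient aTreg cells. Of the 5 myeloid markers that passed the filter, Mpo was called in both genotype comparisons, with 0 and 0 counts in WT rTreg and 25 and 36 counts in Foxp1-deficient rTreg cells. The part of myeloid cells and of B cells in the results below was not tested. In bulk RNA, more cells in S phase and more RNA per cell cannot be told apart.

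**Figure D1:**
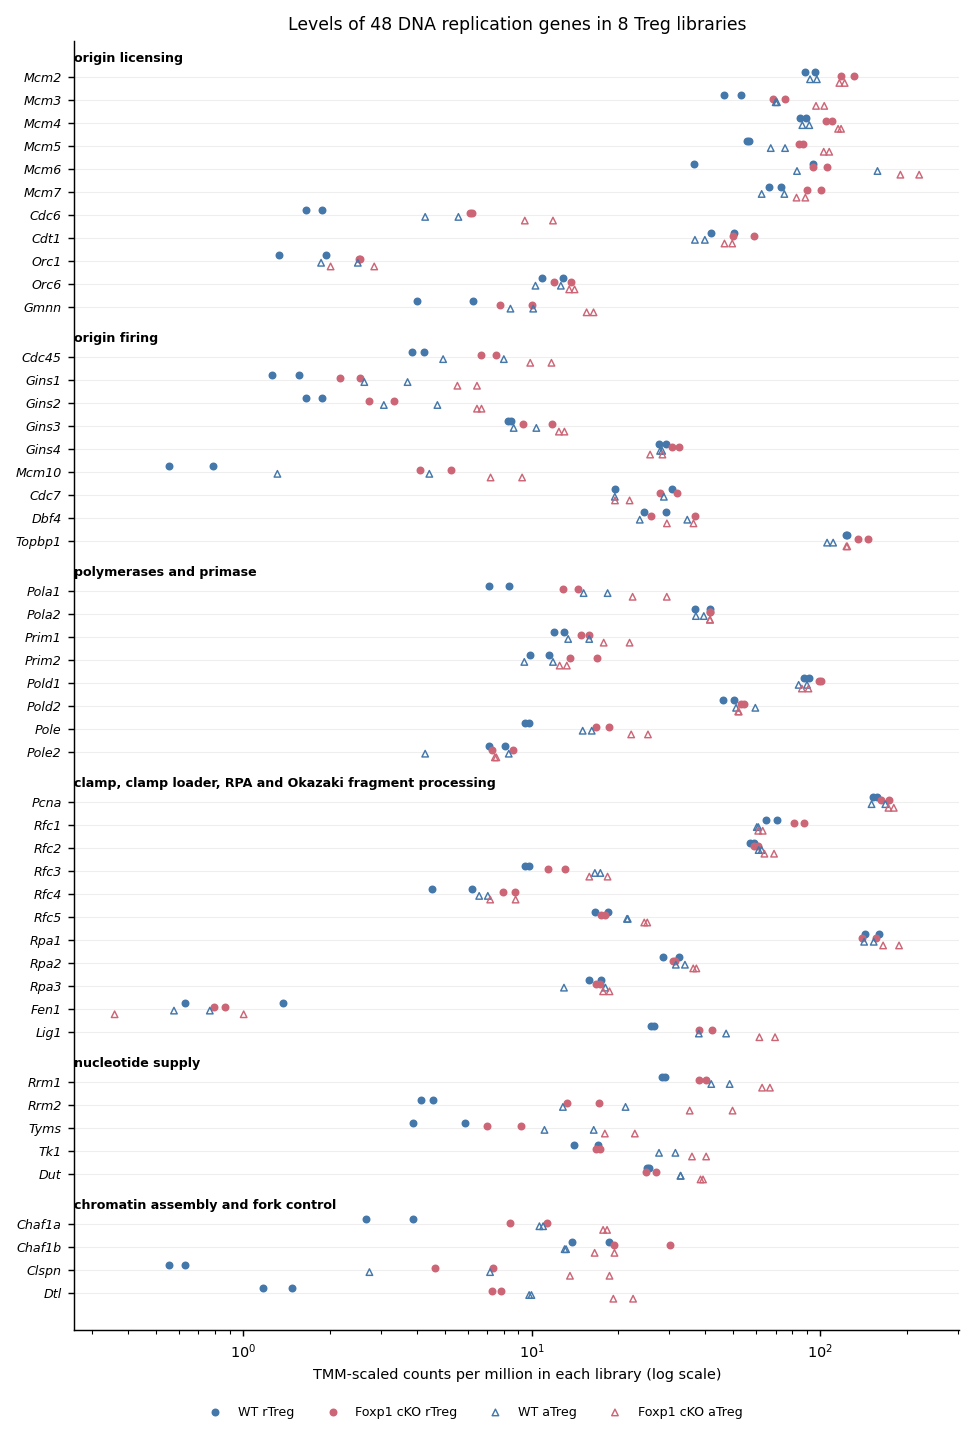
Level of each of the 48 genes in each of the 8 libraries, in TMM-scaled CPM on a log axis, grouped by role (filled circles, rTreg; open triangles, aTreg; blue, WT; red, Foxp1-deficient). For the genes at the bottom, Clspn and Dtl, both WT rTreg libraries lay left of all 6 others, whereas the 8 points for Pcna lay between 151 and 180 CPM.

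Levels per length spanned a wide range. Pcna, the sliding clamp, had the highest level in FPKM, which divides counts by library size and gene length, of the 48, with 63.7 and 63.7 in WT rTreg, 66.6 and 69.4 in Foxp1-deficient rTreg, 64.5 and 71.5 in WT aTreg and 77.1 and 70.6 in Foxp1-deficient aTreg cells. Rpa1, the large subunit of the single-strand binding protein RPA, came next, with 25.8 and 27.8 FPKM in WT rTreg, 24.6 and 26.9 in Foxp1-deficient rTreg, 26.2 and 28.1 in WT aTreg and 30.5 and 33.0 in Foxp1-deficient aTreg cells. Mcm4, a helicase subunit, was at 25.0 and 23.0, 30.2 and 28.0, 24.8 and 26.1 and 33.1 and 32.3 FPKM in the same order of groups. Pcna thus stood well above every other gene of the set, while the levels of Rpa1 and Mcm4 crossed between groups. At the other end, the means over all libraries were 0.330 FPKM for Fen1, 0.534 for Mcm10, 0.632 for Orc1, 0.726 for Dtl and 0.961 for Clspn. The level of Fen1 is uncertain, because its exons overlap other genes (below). The order of the 48 was the same when TMM-scaled counts per kilobase were used in place of FPKM.

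To ask how loss of Foxp1 bears on the replication program of resting cells, Foxp1-deficient and WT rTreg cells were compared. In these cells 17 of the 48 genes rose and 0 fell (edgeR quasi-likelihood test with the replicate number as a block, adjusted p under 0.05), where 6.57 percent of all genes tested rose and 5.45 percent fell. Beside the 0 that fell, 0 members were lower at an unadjusted p under 0.05 by edgeR, limma-voom or DESeq2. Of the 17, 11 rose at least 1.5-fold, against 2.90 percent of all genes. The median log2 fold change of the 48 was 0.38 (0.44 in replicate pair 1 and 0.37 in pair 2), against 0.00291 over all genes, and 46 of 48 were above 0. In 34 of the 48 both Foxp1-deficient libraries were above both WT libraries, as in 22.9 percent of all genes, and in 0 both were below, as in 22.3 percent of all genes. Without the replicate block 8 of the 48 rose: Mcm3, Mcm5, Cdc6, Pole, Rrm2, Chaf1a, Clspn and Dtl. The count of 17 fell to 8 without WT rTreg replicate 1, 4 without WT rTreg replicate 2, 7 without Foxp1-deficient rTreg replicate 1 and 8 without Foxp1-deficient rTreg replicate 2, and Mcm5, Rrm2, Clspn and Dtl were called in all of these.

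**Figure D2:**
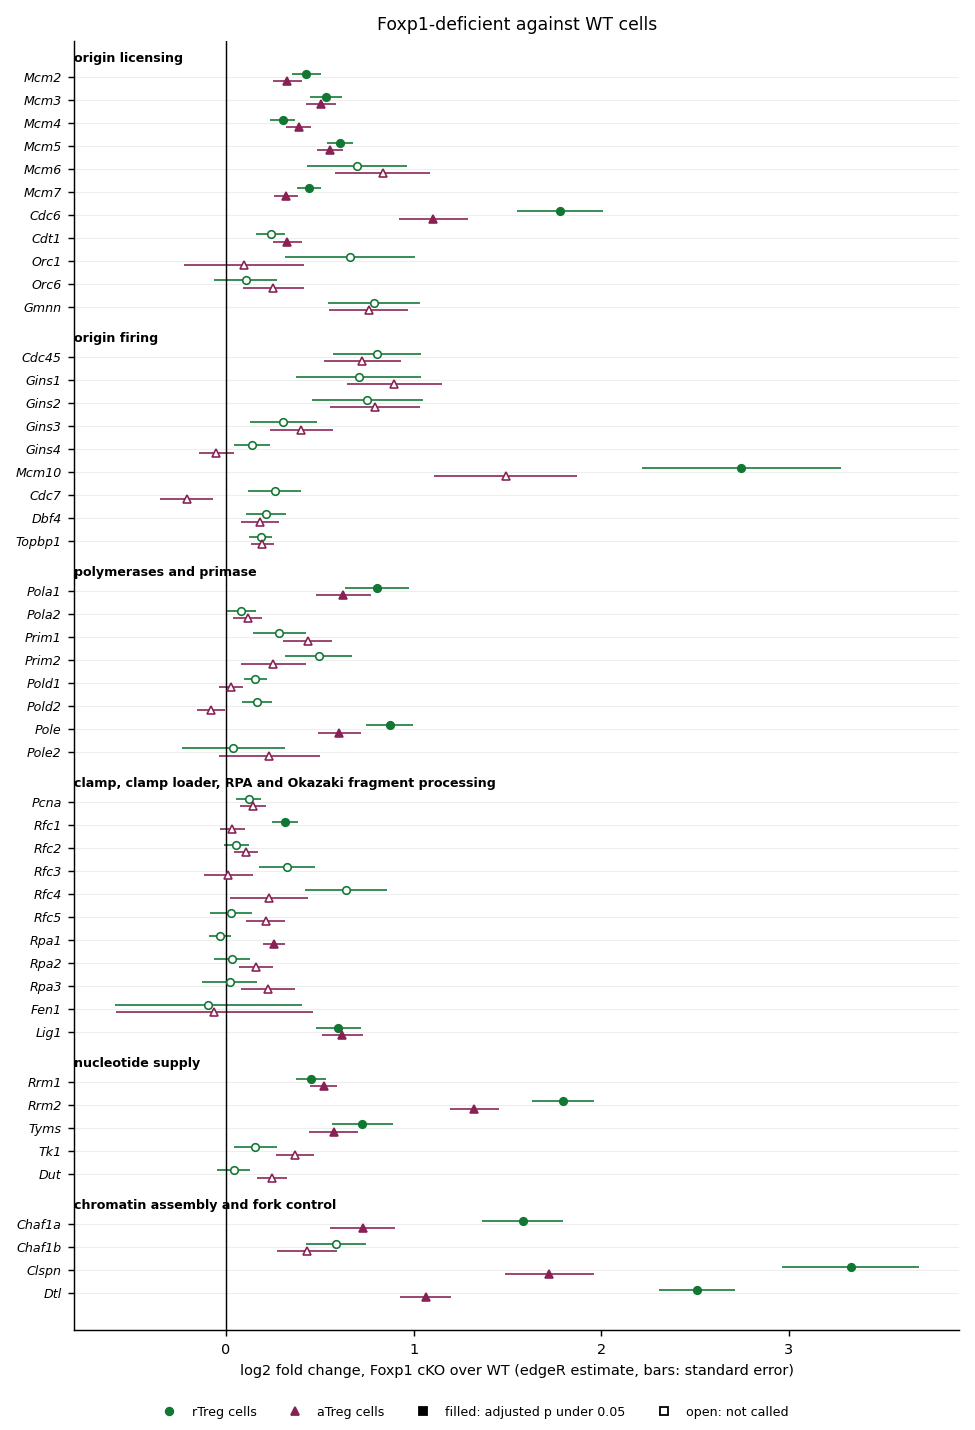
Log2 fold change of Foxp1-deficient over WT cells for each gene in rTreg (green circles) and aTreg cells (purple triangles), as edgeR estimated it, with bars for 1 standard error; filled symbols had an adjusted p under 0.05. All filled symbols lie right of 0, and the greatest values in rTreg cells belong to Clspn, Mcm10 and Dtl.

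The largest changes were in fork control and chromatin assembly, where 3 of 4 genes rose, against 6.57 percent of all genes. Clspn, which codes for claspin, a fork-bound mediator of the replication checkpoint (chr4:126556935-126593903, GRCm38), had 0.553 and 0.628 CPM in the WT rTreg libraries and 4.62 and 7.37 CPM in the Foxp1-deficient ones. Every Foxp1-deficient value was thus several times the highest WT value, although the WT values rested on 6 and 8 counts. Clspn rose 10.05-fold (log2 3.33 ± 0.36, SE; edgeR adjusted p = 0.0023). Dtl codes for the substrate receptor of the ubiquitin ligase that destroys Cdt1 during S phase (chr1:191537356-191575544), and had 1.47 and 1.18 CPM in WT and 7.81 and 7.29 CPM in Foxp1-deficient rTreg libraries. The replicates of each genotype were close together and the genotypes far apart, with a 5.70-fold rise (edgeR adjusted p = 0.0007). Chaf1a, the large subunit of the histone chaperone CAF-1, had 3.87 and 2.67 against 11.3 and 8.45 CPM, again without overlap, and rose 2.99-fold (edgeR adjusted p = 0.0049). In GENCODE M21 exons of Chaf1a overlap Ubxn6 on the other strand, but the length behind its FPKM, 3308 bases, is below the 8854 merged exon bases there, so the overlap of the counted exons is unknown. The strand setting of the counting is not given in the sources used here, and the level of Chaf1a is therefore uncertain. Its partner Chaf1b had 18.6 and 13.7 against 30.1 and 19.3 CPM, higher in both Foxp1-deficient libraries but short of the threshold (edgeR adjusted p = 0.052).

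In nucleotide supply 3 of 5 genes rose, against 6.57 percent of all genes, with a median log2 fold change of 0.45 over the 5. Rrm2, the S-phase subunit of ribonucleotide reductase, which makes deoxynucleotides (chr12:24708241-24714146), had 4.14 and 4.56 CPM in WT and 13.2 and 17.1 CPM in Foxp1-deficient rTreg libraries. Both Foxp1-deficient values were well above the WT values, a 3.47-fold rise (log2 1.80 ± 0.17, SE; edgeR adjusted p = 0.0011). Its partner Rrm1 had 28.3 and 28.9 against 37.9 and 40.3 CPM and rose 1.37-fold (edgeR adjusted p = 0.013). Tyms, thymidylate synthase, had 3.87 and 5.89 against 7.01 and 9.17 CPM. The lowest Foxp1-deficient value of Tyms was not far above the highest WT value, and the rise was 1.65-fold (edgeR adjusted p = 0.028); DESeq2 did not call it. Thymidine kinase 1 (Tk1) had 16.9 and 14.1 against 16.7 and 17.3 CPM and overlapped between genotypes. Dut, the dUTPase that keeps uracil out of DNA, had 25.1 and 25.5 against 24.9 and 27.0 CPM, also overlapping.

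Of the licensing factors 6 of 11 rose, against 6.57 percent of all genes. All 11 had a positive estimate, with a median log2 fold change of 0.53. Cdc6, the loader of the Mcm ring, changed most, from 1.66 and 1.89 CPM in WT to 6.22 and 6.14 CPM in Foxp1-deficient rTreg cells. The Cdc6 replicates were nearly equal within each genotype, and the rise was 3.44-fold (edgeR adjusted p = 0.004). Among the subunits of the ring itself, Mcm5 had 55.7 and 56.5 against 86.9 and 84.5 CPM and rose 1.52-fold (log2 0.61 ± 0.07, SE; edgeR adjusted p = 0.0027). Mcm3 had 53.1 and 46.4 against 75.5 and 68.5 CPM (1.45-fold), and Mcm7 had 66.6 and 73.3 against 89.7 and 100.5 CPM (1.36-fold). The Mcm2 values were 95.7 and 88.4 against 130.4 and 118 CPM (1.35-fold), and those of Mcm4 were 89.0 and 84.8 against 110.1 and 104 CPM (1.23-fold). In all 5 of these subunits the genotypes were fully separated, at folds between 1.23 and 1.52 (edgeR adjusted p between 0.0027 and 0.028). Mcm6 stood apart: its replicates differed more than its genotypes, with 36.6 and 94.4 CPM in WT and 94.0 and 106 CPM in Foxp1-deficient rTreg cells (edgeR adjusted p = 0.13). For Cdt1, the loading partner of Cdc6, the values were 50.3 and 41.9 against 59.1 and 49.7 CPM and overlapped. Gmnn, which codes for the Cdt1 inhibitor geminin, had 6.26 and 4.01 against 10.04 and 7.80 CPM (edgeR adjusted p = 0.077). The origin recognition genes Orc1 and Orc6 had estimates of 0.66 ± 0.35 and 0.11 ± 0.17 on the log2 scale (SE) and were not called.

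Of the 9 firing factors only Mcm10 rose, where 6.57 percent of all genes did, although all 9 estimates were above 0. Mcm10, which helps to activate the loaded helicase, had 0.553 and 0.786 CPM in WT and 5.26 and 4.12 CPM in Foxp1-deficient rTreg libraries. The WT values came from 6 and 10 counts, and the rise was 6.71-fold with a wide error (log2 2.75 ± 0.53, SE; edgeR adjusted p = 0.018). Cdc45 had 4.24 and 3.85 against 6.69 and 7.51 CPM, separated by genotype but not called (edgeR adjusted p = 0.065). The GINS subunits Gins1, Gins2, Gins3 and Gins4 had log2 estimates of 0.71, 0.75, 0.30 and 0.14. For the firing kinase, Cdc7 and Dbf4 had 0.26 and 0.21, and the firing scaffold Topbp1 had 0.18, none of them past the threshold. Gins2 shares 67.3 percent of its exon length with Gse1 on the other strand, so its level is uncertain as well.

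Among polymerases, the catalytic subunits of the priming and leading-strand enzymes rose and the other 6 genes were not called. That is 2 of 8, against 6.57 percent of all genes. Pola1, of polymerase alpha, had 7.09 and 8.33 against 14.5 and 12.9 CPM and rose 1.75-fold (edgeR adjusted p = 0.024). Pole, of polymerase epsilon, had 9.76 and 9.51 against 16.7 and 18.5 CPM, and the genotypes did not overlap (1.83-fold, edgeR adjusted p = 0.0059). By contrast the lagging-strand subunits Pold1 and Pold2 had log2 estimates of 0.16 ± 0.06 and 0.17 ± 0.08 (SE), the primase genes Prim1 and Prim2 0.28 ± 0.14 and 0.49 ± 0.18, and the accessory subunits Pola2 and Pole2 0.08 ± 0.08 and 0.04 ± 0.27.

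The group of clamp, loader, RPA and Okazaki fragment genes moved least, with a median log2 fold change of 0.05. Still, 2 of 11 were called higher, against 6.57 percent of all genes. Lig1, the ligase that seals Okazaki fragments, had 26.5 and 26.0 against 42.1 and 38.1 CPM, fully separated, and rose 1.51-fold (edgeR adjusted p = 0.019). Rfc1, the large subunit of the clamp loader, had 70.6 and 65.0 against 88.0 and 81.0 CPM, also separated, and rose 1.24-fold (edgeR adjusted p = 0.026). Pcna had 152 and 157 against 162 and 173 CPM: both Foxp1-deficient libraries were above both WT libraries, but the difference was small (log2 0.12 ± 0.07, SE; edgeR adjusted p = 0.3). Part of the Pcna transcript, 51.4 percent, has a pseudogene copy, Pcna-ps2, at 99.2 percent identity, and the copy held 165 counts over the 8 libraries. Of the genes called higher here, Mcm7, Cdc6 and Rrm2 also had pseudogene copies, over 72.8, 33.1 and 19.1 percent of the transcript. Their identities were 97.7, 95.2 and 95.5 percent, and those copies were not in the count table. The small loader subunits Rfc2, Rfc3, Rfc4 and Rfc5 had log2 estimates of 0.05, 0.32, 0.64 and 0.02, and Rpa1, Rpa2 and Rpa3 had -0.03, 0.03 and 0.02. The flap nuclease gene Fen1 had 1.38 and 0.628 against 0.797 and 0.867 CPM, but 84.2 percent of its exon length is shared with other genes, most of it with the antisense gene Gm10143. The level of Fen1 in this table is therefore uncertain.

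In aTreg cells, where WT levels of many of these genes were already higher, 17 of the 48 rose in Foxp1-deficient cells and 0 fell (edgeR, adjusted p under 0.05), against 4.11 percent of all genes that rose and 2.77 percent that fell. None of edgeR, limma-voom and DESeq2 had a member lower at an unadjusted p under 0.05. Of the 17, 8 rose at least 1.5-fold, against 2.37 percent of all genes. The median log2 fold change was 0.33 (0.43 in pair 1 and 0.31 in pair 2), against 0.00185 over all genes, and 37 of 48 genes did not overlap between genotypes, against 22.2 percent of all genes, all 37 of them higher, and 0 were lower without overlap, against 19.6 percent. These calls leaned on the pairing of the libraries: without the replicate block 0 of the 48 were called by edgeR, although 25 were higher at an unadjusted p under 0.05, and limma-voom and DESeq2 with the block called 16 and 13. Of the 17 calls, 5 held without WT aTreg replicate 1, 6 without WT aTreg replicate 2, 5 without Foxp1-deficient aTreg replicate 1, and 1, Rrm2, without Foxp1-deficient aTreg replicate 2. Without either WT rTreg library 10 of the 17 held, and without either Foxp1-deficient rTreg library 11 did.

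The genes called were largely those of rTreg cells: 15 were called in both subsets, Mcm10 and Rfc1 in rTreg cells alone, and Cdt1 and Rpa1 in aTreg cells alone. For calls counted jointly over comparisons, here and below, the share over all genes tested was not counted. Such counts describe this list alone. The 2 comparisons share no library, but they share one estimate of the spread and the replicate term. Rrm2 had 12.8 and 21.2 CPM in WT aTreg and 35.3 and 49.7 CPM in Foxp1-deficient aTreg libraries. The lower Foxp1-deficient value lay above the higher WT value, a 2.50-fold rise (log2 1.32 ± 0.13, SE; edgeR adjusted p = 0.0024). Clspn had 2.74 and 7.18 against 13.6 and 18.6 CPM; the WT replicates were far apart, yet both lay below the Foxp1-deficient ones (3.30-fold, edgeR adjusted p = 0.008). Dtl had 9.98 and 9.81 against 22.5 and 19.2 CPM, close within each genotype, and rose 2.09-fold (edgeR adjusted p = 0.0065). The values of Chaf1a were 10.6 and 10.96 against 17.7 and 18.3 CPM (1.66-fold, edgeR adjusted p = 0.049), with no overlap.

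The licensing genes repeated this pattern in aTreg cells, with 7 of 11 called higher, against 4.11 percent of all genes. Cdc6 had 4.28 and 5.58 against 9.47 and 11.9 CPM, separated by genotype, and rose 2.15-fold (edgeR adjusted p = 0.016). Mcm5 had 67.4 and 75.5 against 103 and 107 CPM (1.47-fold), and Mcm3 had 70.8 and 70.1 against 96.7 and 103 CPM (1.42-fold). For Mcm4 the values were 86.7 and 91.6 against 115 and 118 CPM (1.31-fold), and for Mcm2 they were 92.2 and 97.3 against 116 and 121 CPM (1.25-fold). Mcm7 had 62.6 and 75.1 against 82.7 and 88.8 CPM (1.25-fold), and these 5 ring subunits were called (edgeR adjusted p between 0.0052 and 0.046). Mcm6, at 83.1 and 158 against 189 and 220.1 CPM, was also above WT in both libraries and had the largest estimate of the ring, but with the largest standard error it was not called (log2 0.83 ± 0.25, SE; edgeR adjusted p = 0.098). Cdt1 had 39.8 and 36.8 against 49.5 and 46.6 CPM and passed the threshold narrowly (1.25-fold, edgeR adjusted p = 0.048).

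In the elongation groups of aTreg cells, Lig1 had 38.0 and 47.2 against 61.5 and 69.7 CPM and rose 1.54-fold (edgeR adjusted p = 0.019). The catalytic subunits Pole and Pola1 had 15.03 and 16.2 against 22.1 and 25.3 CPM and 15.1 and 18.3 against 22.4 and 29.4 CPM, and rose 1.52-fold and 1.54-fold (edgeR adjusted p = 0.023 and 0.047). All 3 of these genes were separated by genotype. Rpa1, the most abundant RPA subunit, had 142 and 153 against 165 and 187 CPM, a 1.19-fold rise (edgeR adjusted p = 0.038). Rfc1 was flat, with 61.0 and 60.3 against 60.9 and 63.2 CPM and a log2 estimate of 0.03 ± 0.07 (SE). In nucleotide supply, Rrm1 had 41.9 and 48.5 against 62.9 and 66.9 CPM (1.43-fold, edgeR adjusted p = 0.0088) and Tyms had 11.1 and 16.4 against 17.9 and 22.8 CPM (1.49-fold, edgeR adjusted p = 0.042). Both were above WT in each Foxp1-deficient library. None of the 9 firing factors was called in aTreg cells by edgeR, where 4.11 percent of all genes rose. At an unadjusted p under 0.05 the count was 6. Mcm10, at 1.32 and 4.42 against 7.21 and 9.27 CPM, came nearest (edgeR adjusted p = 0.061), and its WT aTreg replicates differed by several times.

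**Figure D3:**
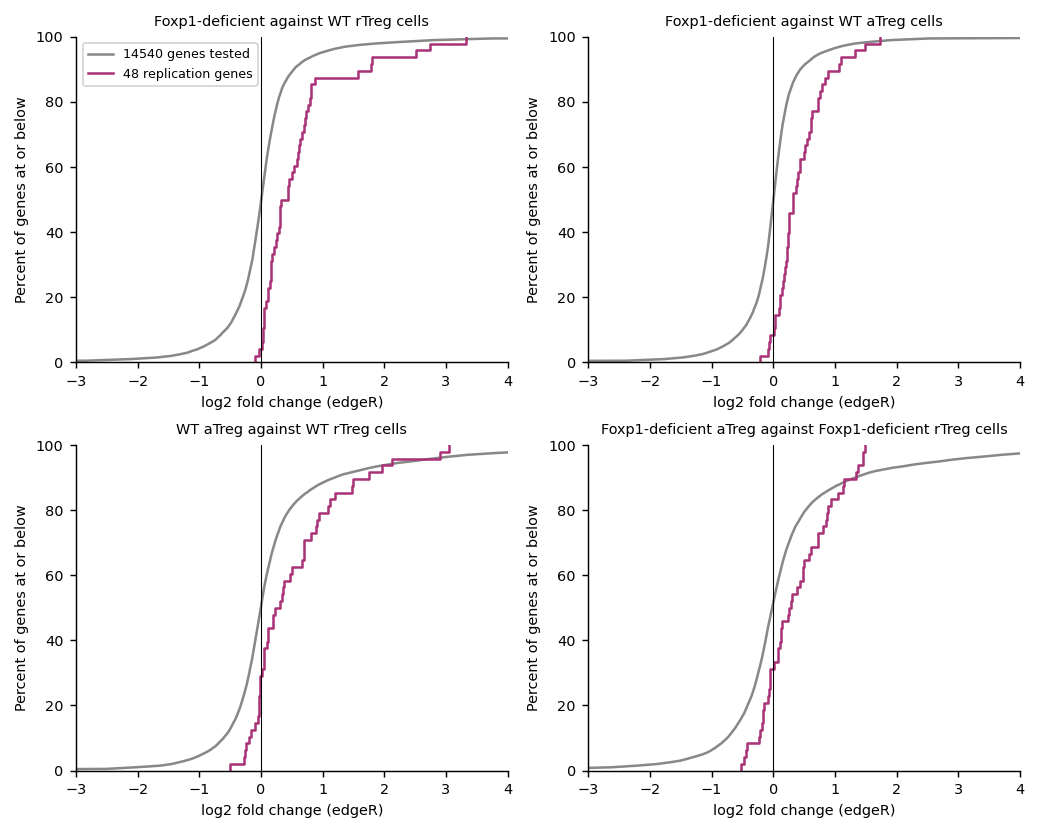
Cumulative share of genes, in percent, at or below each log2 fold change, for the 48 replication genes (purple steps) and all 14540 genes tested (gray curve) in the 4 comparisons; the axis ends at -3 and 4. In both genotype comparisons the purple steps lie right of the gray curve around 0, with medians of 0.38 and 0.33 against 0.00291 and 0.00185.

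Whether the genotype effect differed between subsets was tested with the interaction term. No member passed (edgeR, 0 of 48 at an adjusted p under 0.05, where 0.186 percent of all genes passed upward and 0.144 percent downward). At an unadjusted p under 0.05 there were 5 of 48, against 12.8 percent of all genes, and limma-voom and DESeq2 also gave 0 adjusted calls, with 5 and 4 members at an unadjusted p under 0.05. Dtl came nearest, with an effect in aTreg cells -1.45 ± 0.25 (log2, SE) relative to that in rTreg cells (edgeR adjusted p = 0.06). Clspn had -1.61 ± 0.46 (edgeR adjusted p = 0.19) and Chaf1a -0.85 ± 0.28 (edgeR adjusted p = 0.25), and Rpa1 was the lowest p in the other direction, at 0.29 ± 0.08 (edgeR adjusted p = 0.18). Without the filter on low counts Dtl and Clspn did pass (edgeR adjusted p = 0.0081 and 0.046), so the call for these 2 genes depended on that filter.

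The comparison of aTreg with rTreg cells of the same genotype asks how the replication genes differ between the resting and activated state. In WT cells 20 of the 48 genes rose in aTreg cells and 2, Cdt1 and Topbp1, fell (edgeR, adjusted p under 0.05), against 18.2 percent of all genes that rose and 13.6 percent that fell. Of the 20, 10 rose at least 2-fold, against 9.50 percent of all genes. The median log2 fold change of the 48 was 0.27, against -0.0046 over all genes. Both aTreg libraries were above both rTreg libraries in 26 of the 48, against 30.1 percent of all genes, and below in 4, Cdt1, Topbp1, Rfc1 and Chaf1b, against 26.8 percent. Nucleotide supply was the one group in which all members rose, 5 of 5, with Rrm2 3.89-fold, Tyms 2.81-fold, Tk1 1.91-fold, Rrm1 1.58-fold and Dut 1.30-fold higher in WT aTreg cells (edgeR adjusted p between 0.00011 and 0.013). B cell markers moved with the subset too: of the 5 that passed the filter, Cd79b, Pax5 and Cd22 were higher in WT aTreg cells, and these and Blk in Foxp1-deficient aTreg cells, with median log2 fold changes of 1.70 and 3.06. Among the replication genes, 5 of 11 licensing factors rose in WT aTreg cells, of the firing factors 3 of 9, of the polymerase and clamp groups 2 of 8 and 2 of 11, and of chromatin assembly and fork control 3 of 4.

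The 8 greatest rises from WT rTreg to WT aTreg cells were those of Clspn, Dtl, Mcm10, Rrm2, Chaf1a, Tyms, Cdc6 and Gins1. Clspn rose 8.32-fold and Dtl 7.48-fold from the rTreg values given above to 2.74 and 7.18 and 9.98 and 9.81 CPM (edgeR adjusted p = 0.00063 and 4.2e-05). Mcm10 rose 4.34-fold, Chaf1a 3.36-fold, and Cdc6 2.78-fold (edgeR adjusted p = 0.02, 0.00063 and 0.0021). Gins1, a GINS subunit, went from 1.57 and 1.26 CPM in WT rTreg to 2.63 and 3.72 CPM in WT aTreg libraries, without overlap (2.29-fold, edgeR adjusted p = 0.021). All 8 were above both rTreg libraries in both aTreg libraries. Of the 4 lowest estimates, that of Fen1 was -0.50 ± 0.50 (log2, SE; 1.38 and 0.628 CPM in WT rTreg and 0.768 and 0.577 in WT aTreg libraries). Chaf1b had 18.6 and 13.7 against 13.2 and 13.01 CPM, lower in both aTreg libraries but not called (edgeR adjusted p = 0.24), while Pole2, with 7.09 and 8.09 against 4.28 and 8.33 CPM, overlapped. Cdt1 fell, from 50.3 and 41.9 CPM in WT rTreg to 39.8 and 36.8 CPM in WT aTreg cells (log2 -0.26 ± 0.08, SE; edgeR adjusted p = 0.038), and Topbp1 fell from 124 and 123 to 111 and 106 CPM (edgeR adjusted p = 0.047). The 2 falls were small and were lost without the replicate block, with DESeq2, with no filter on low counts, on log2(FPKM + 1), and on leaving out any 1 of the 8 libraries.

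**Figure D4:**
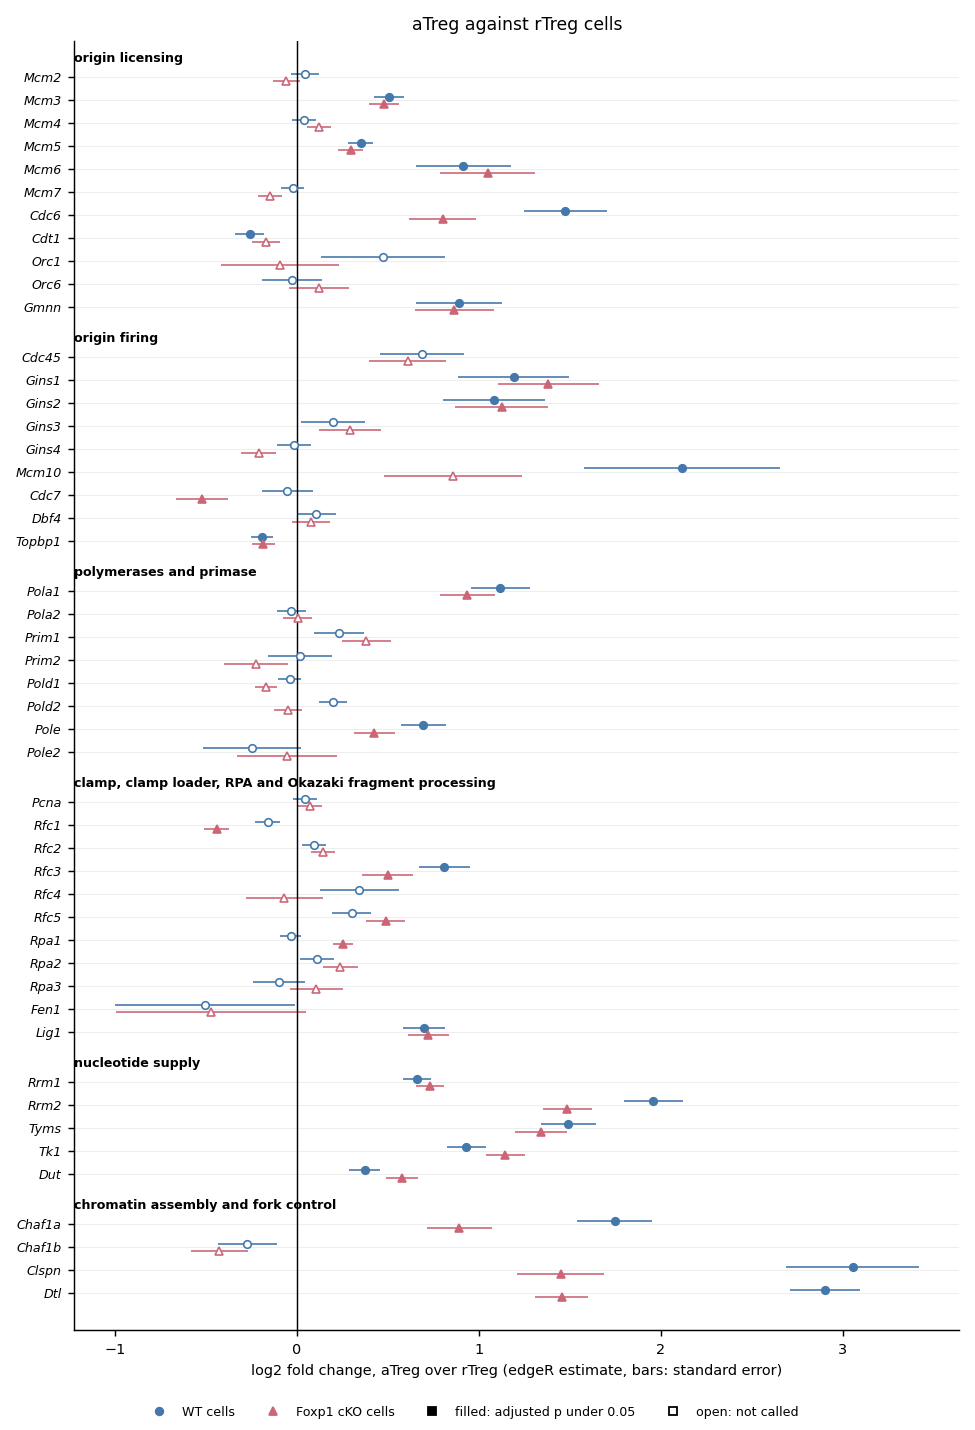
Log2 fold change of aTreg over rTreg cells for each gene in WT (blue circles) and Foxp1-deficient cells (red triangles), as edgeR estimated it, with bars for 1 standard error; filled symbols had an adjusted p under 0.05. All 5 genes of nucleotide supply are filled and right of 0 in both genotypes, and Clspn, Dtl and Chaf1a have smaller values in Foxp1-deficient than in WT cells, differences that the interaction test did not call.

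In Foxp1-deficient cells 21 of the 48 genes rose in aTreg cells and 3, Cdc7, Topbp1 and Rfc1, fell, against 21.9 percent of all genes that rose and 18.2 percent that fell. Of the 21, 8 rose at least 2-fold, against 11.3 percent of all genes, and the median log2 fold change was 0.27 against -0.018 over all genes. Without overlap between subsets 30 of the 48 were higher, against 31.4 percent of all genes, and 9 were lower, against 30.3 percent. The count of 21 was 10 without Foxp1-deficient rTreg replicate 2 and 11 without Foxp1-deficient aTreg replicate 2. In all, 19 genes rose in aTreg cells of both genotypes, a count with no matching share over all genes. The greatest rises were in Rrm2, at 13.2 and 17.1 CPM in Foxp1-deficient rTreg and 35.3 and 49.7 CPM in aTreg libraries (2.80-fold, edgeR adjusted p = 0.00012), Dtl (2.74-fold, edgeR adjusted p = 0.00019) and Clspn (2.73-fold, edgeR adjusted p = 0.0022). Gins1, at 2.55 and 2.17 against 5.53 and 6.47 CPM, and Tyms followed, 2.61-fold and 2.53-fold higher. Mcm6, with 94.0 and 106 CPM in Foxp1-deficient rTreg and 189 and 220.1 CPM in Foxp1-deficient aTreg libraries, was called here (2.07-fold, edgeR adjusted p = 0.014). It was also called in WT cells (1.88-fold, edgeR adjusted p = 0.032), but there the subsets overlapped, at 36.6 and 94.4 against 83.1 and 158 CPM. The Mcm6 call was kept under 5 of 8 other settings in WT cells and 6 of 8 in Foxp1-deficient cells. Among the genes that fell, Rfc1 went from 88.0 and 81.0 to 60.9 and 63.2 CPM, below both rTreg libraries (edgeR adjusted p = 0.0017), and Cdc7 from 27.9 and 31.8 to 19.4 and 21.9 CPM (edgeR adjusted p = 0.023). The fall of Rfc1 was called under all 8 other settings and in all 8 fits with a library left out, that of Cdc7 under 6 and in 6, and that of Topbp1 under 3 and in 0. The 2 subset comparisons each share libraries with the genotype comparisons, so the 4 sets of values are not independent.

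Set side by side, the 4 groups formed a common order in many of these genes. Mean CPM was lowest in WT rTreg cells for 33 of the 48 and highest in Foxp1-deficient aTreg cells for 33, and both held for 29, or 60.4 percent, against 16.1 percent of all 14540 genes. The 12 genes that were higher in all 4 comparisons, Mcm3, Mcm5, Cdc6, Pola1, Pole, Lig1, Rrm1, Rrm2, Tyms, Chaf1a, Clspn and Dtl, all had this order, which their calls imply. In these 12 genes Foxp1-deficient rTreg and WT aTreg cells lay between. Over all 48 the mean in Foxp1-deficient rTreg cells was above that in WT aTreg cells for 30 (62.5 percent), against 52.1 percent of all genes. For 5 of the 12 (Mcm3, Mcm5, Cdc6, Pole and Clspn) the mean in Foxp1-deficient rTreg cells was above that in WT aTreg cells, and for the other 7 it was below, as in Dtl with 7.81 and 7.29 against 9.98 and 9.81 CPM. At the other extreme, 19 genes were called in none of the 4 comparisons: Orc1, Orc6, Cdc45, Gins3, Gins4, Dbf4, Pola2, Prim1, Prim2, Pold1, Pold2, Pole2, Pcna, Rfc2, Rfc4, Rpa2, Rpa3, Fen1 and Chaf1b. No matching share over all genes was counted for these 19 or for the 12 above. Summed over the 48, the level was 1539 and 1600.2 CPM in WT rTreg, 1942 and 1928 CPM in Foxp1-deficient rTreg, 1680.1 and 1889 CPM in WT aTreg, and 2207 and 2337 CPM in Foxp1-deficient aTreg cells. The lowest summed values were those of WT rTreg and the highest those of Foxp1-deficient aTreg cells, with the other 4 libraries between.

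Promoter sequence was looked at for the list as a whole, of which 29 genes were called in neither genotype comparison. RefSeq promoter windows (GRCm38.p6, 250 bases before to 50 after each start) were matched for 40 of the 48 genes by symbol; Gins1, Gins2, Gins4, Gmnn, Mcm4, Pole, Prim2 and Rfc2 had none. The E2F words TTTCCCGC, TTTGGCGC, TTTCGCGC and TTTGCCGC, on either strand, were found in 16 of the 40 genes (40.0 percent), against 2.61 percent of all 27025 genes with a window and 4.76 percent of the 9703 tested genes with one. Of the 15 genes with a window that rose in Foxp1-deficient rTreg cells 8 held a word, and of the 25 not called there 8 did. The word CCAAT, on either strand, was in 24 of the 40 windows (60.0 percent), against 42.8 percent of tested genes, and in 12 of the 15 and 12 of the 25. The forkhead word GTAAACA was in the windows of Cdc45 and Mcm7, 5.0 percent, against 3.10 percent of tested genes. A match is a description of letters, not of a bound site. Words can share bases: the last C of the second E2F word of Mcm7 begins a CCAAT, and the 2 E2F words of Mcm5 overlap. Shown are the 250 bases before the start of 3 genes with large rises in rTreg cells, read 5′ to 3′ on the strand of the gene, with E2F and CCAAT words in capitals: Dtl holds one of each, while Mcm10 and Rrm2 hold CCAAT words and no E2F word in their windows.
Dtl (chr1:191575545-191575794, minus strand): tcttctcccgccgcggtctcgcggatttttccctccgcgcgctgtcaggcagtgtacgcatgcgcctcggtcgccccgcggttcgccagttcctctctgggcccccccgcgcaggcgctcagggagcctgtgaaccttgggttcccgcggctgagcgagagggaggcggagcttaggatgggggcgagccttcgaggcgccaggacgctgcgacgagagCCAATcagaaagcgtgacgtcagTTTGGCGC
Mcm10 (chr2:5012792-5013041, minus strand): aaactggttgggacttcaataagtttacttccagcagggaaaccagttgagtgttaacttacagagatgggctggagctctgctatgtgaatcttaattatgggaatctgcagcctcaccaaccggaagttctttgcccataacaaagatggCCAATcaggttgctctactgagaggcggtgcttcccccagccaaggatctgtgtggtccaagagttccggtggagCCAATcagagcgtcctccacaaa
Rrm2 (chr12:24708004-24708253, plus strand): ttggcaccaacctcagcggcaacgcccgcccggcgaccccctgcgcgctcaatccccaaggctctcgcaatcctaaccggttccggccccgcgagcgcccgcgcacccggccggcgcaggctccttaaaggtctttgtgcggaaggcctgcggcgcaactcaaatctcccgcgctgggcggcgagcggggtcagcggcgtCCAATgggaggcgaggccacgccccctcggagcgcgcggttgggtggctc

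For the other 7 genes that rose in Foxp1-deficient rTreg cells and hold an E2F word, 30 bases around it are shown, with the E2F words in capitals. In Clspn, Lig1 and Mcm3, and for the second word of Mcm7, the word lies after the RefSeq start, and Mcm3 has another, not shown, at position 39. In Cdc6, Pola1 and Mcm5, and for the first word of Mcm7, it begins between positions -165 and -138 from that start.
Clspn (chr4:126556990-126557019, plus strand): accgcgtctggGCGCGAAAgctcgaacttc
Lig1 (chr7:13278841-13278870, plus strand): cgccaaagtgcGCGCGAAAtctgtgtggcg
Mcm3 (chr1:20820275-20820304, minus strand): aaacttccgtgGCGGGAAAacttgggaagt
Mcm7 (chr5:138172030-138172059, minus strand): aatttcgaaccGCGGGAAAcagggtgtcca
Mcm7 (chr5:138171849-138171878, minus strand): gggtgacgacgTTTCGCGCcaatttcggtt
Cdc6 (chr11:98908002-98908031, plus strand): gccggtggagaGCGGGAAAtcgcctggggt
Pola1 (chrX:93632275-93632304, minus strand): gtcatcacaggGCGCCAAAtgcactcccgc
Mcm5 (chr8:75109347-75109376, plus strand): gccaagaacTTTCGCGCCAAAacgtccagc

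**Figure D5:**
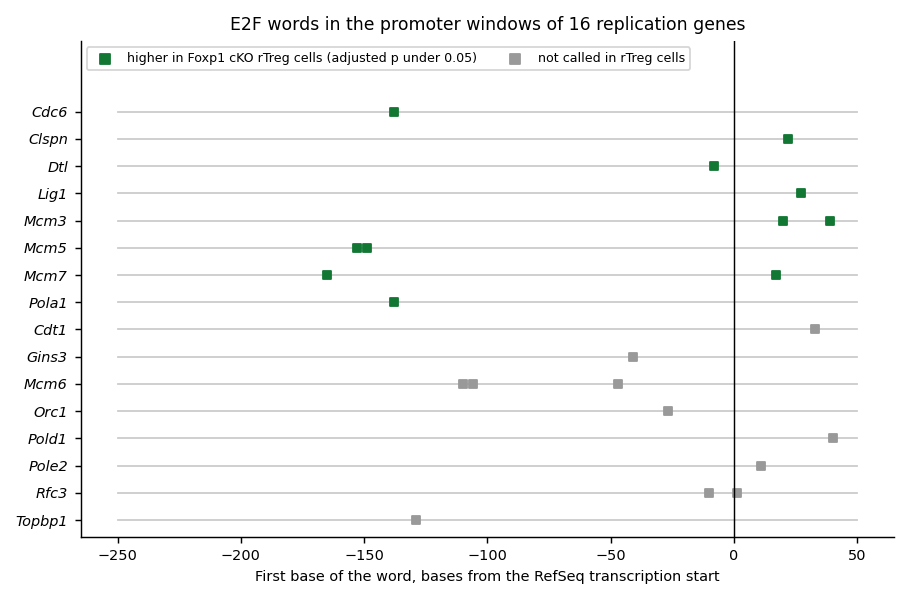
Position of each E2F word in the 16 promoter windows that hold one, as bases from the RefSeq start to the first base of the word (green, genes higher in Foxp1-deficient rTreg cells; gray, genes not called there; gray lines, the window searched). The words of the 8 genes in green begin between positions -165 and 39, and those of the 8 in gray between positions -129 and 40.

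Of 43 other replication and S-phase genes, 8 (18.6 percent) rose in Foxp1-deficient rTreg cells and 3 fell, where 6.57 percent of all genes rose and 5.45 percent fell, and the median log2 fold change was 0.10. In aTreg cells 8 rose and 0 fell, where 4.11 percent of all genes rose and 2.77 percent fell, with a median of 0.14 (edgeR; over both directions 13 had an unadjusted p under 0.05 in aTreg cells). Higher in both subsets were Ticrr, which helps Topbp1 fire origins (1.01 and 1.57 against 5.58 and 5.63 CPM in rTreg and 7.46 and 6.73 against 12.8 and 16.5 CPM in aTreg cells), Uhrf1, which guides maintenance of DNA methylation behind the fork (8.66 and 10.7 against 31.7 and 34.9 CPM and 21.5 and 34.2 against 56.8 and 67.6 CPM), and the histone chaperone gene Asf1b (3.87 and 5.58 against 9.88 and 11.3 CPM and 6.91 and 10.3 against 16.4 and 20.9 CPM). These 3 genes were separated by genotype in each subset. The helicase gene Hells, the nuclease and helicase gene Dna2 and the fork protein gene Wdhd1 were also called in both, at log2 1.02, 0.90 and 0.73 in rTreg and 0.59, 1.03 and 0.69 in aTreg cells. Among those called in rTreg and not in aTreg cells was the phosphatase gene Cdc25a, at log2 0.56. Called in aTreg cells alone were the methyltransferase gene Dnmt1 and Dck, a kinase of nucleotide salvage, at log2 0.31 and 0.66. The genes that fell in rTreg cells were Samhd1, which degrades deoxynucleotides, Rrm2b, a ribonucleotide reductase subunit used outside S phase, and Timeless, a fork protein gene, at log2 -0.64, -0.31 and -0.28. Beside the replication genes, 31 of 39 mitosis genes rose in Foxp1-deficient rTreg cells and 33 of 39 in aTreg cells, with median log2 fold changes of 2.07 and 1.29.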

How the data were processed

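RNA of 8 sorted Treg libraries, 2 in each of 4 groups, was sequenced. The study's methods state that reads were trimmed with trim_galore and that duplicates were taken out with Picard before counting. Per the labels and those methods, the authors aligned reads to mm10 with HISAT2 2.0.5. They deposited whole-number gene counts from HTSeq, with a total of 6373170 to 15268623 counts per library. The deposited FPKM values are those counts divided by library total and 1 length per gene, with no TMM scaling. The annotation release and the strand setting of the counting are not given in the sources used here. Coordinates are those of GENCODE M21 on GRCm38.

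From the counts, genes were filtered with filterByExpr, leaving 14540, scaled by TMM and tested in edgeR 4.0.16 (R 4.3.3; glmQLFit and glmQLFTest) with a term for each group and a blocking term for the replicate number. P-values were adjusted by Benjamini-Hochberg over all 14540 genes and called under 0.05. The standard error is the log2 fold change divided by the root of F. The study's methods used a paired analysis, and here libraries with the same number deviated together in all 6 pairs of groups (correlation 0.309 to 0.551 over 14540 genes), so the number was kept as a block. Xist had 0 to 3 counts in every replicate 1 library and 15098 to 21822 in every replicate 2 library, while Y-linked genes had 2143 to 4356 and 0, so the replicates of a group came from mice of different sex, and the block is also sex. How many animals each library held is not stated, and p-values measure the spread between these libraries. A simulation over 14105 genes of the rTreg genotype comparison recovered 150 of 200 changed genes, with 18 others called. The share of unchanged genes among its calls was thus above the nominal 0.05. The changed genes of the simulation had a mean above 1 CPM and preset changes of 1.5-fold or more. Recovery of smaller changes, such as those of several called members, was not measured.

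Alternatives were a fit without the block, limma-voom (limma 3.58.1), DESeq2 1.42.0, and edgeR with RLE (relative log expression) scaling in place of TMM. Others were no filter, a filter of 1 CPM in 2 libraries, the libraries of each comparison alone, limma on log2(FPKM + 1), and each library left out in turn. Per-library values were given for genes called in either genotype comparison, the 8 largest and 4 smallest WT subset changes and the 3 highest FPKM means, and for further members beside them. Values of some genes outside the 48 are not reported here. The members and lists were chosen with earlier results of these data known. Promoter windows were searched as exact letters in Python 3.11.15, and near-identical transcripts with BLAST+ 2.17.0.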

Additional observations from a re-analysis of the deposited data

How the results depend on the processing

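Without the replicate block the numbers of members called were 8 higher in the rTreg and 0 higher in the aTreg genotype comparison, and 0 lower in the WT and 1 lower in the Foxp1-deficient subset comparison. DESeq2 gave 0 lower in the WT subset comparison. With no filter on low counts the interaction called 2 members and the WT subset comparison 0 lower. With the libraries of a comparison alone the rTreg genotype median was 0.43 (log2), and 7 members were higher in the aTreg genotype comparison. On log2(FPKM + 1), which understates changes of low genes, 5 and 1 members were higher in the rTreg and aTreg genotype comparisons, 0 lower in the WT and 1 lower in the Foxp1-deficient subset comparison, and medians were 0.25 for the rTreg genotype and 0.195 for the WT subset comparison. The causes of these differences were not tested.

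Leaving out 1 library at a time, members higher numbered 4 to 19 (rTreg genotype), 1 to 11 (aTreg genotype), 14 to 20 (WT subset) and 10 to 23 (Foxp1-deficient subset), and members lower 0 to 0 (WT subset) and 1 to 3 (Foxp1-deficient subset). The medians ran from 0.34 to 0.48, 0.27 to 0.49, 0.22 to 0.33 and 0.22 to 0.32 in the same order, and the interaction called 0 each time. Where this left 1 library in a group, it was assumed to vary like the other groups. No called value changed sign under any setting. Depth limits the lowest genes most: the smallest count was 5 for Fen1 and 6 for Mcm10 and Clspn. For Fen1 the exons shared with other genes also make the count uncertain.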
